A study of Homo sapiens with 7 samples.

Results

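SRPIN340 is a small-molecule inhibitor of the SR protein kinases SRPK1 and SRPK2. The comparison described here sets HEK-293 cells kept with 10 µM SRPIN340 at pH 7.4 against cells kept at the same pH with the vehicle alone. HEK-293 cells are an established line derived from human embryonic kidney. All incubations lasted 48 h, and DMSO, the solvent of the inhibitor, was present in every group. By their labels, 2 samples belonged to the SRPIN340 group and 2 to the control group, 4 of the 7 samples sequenced. The other 3 were cells in medium acidified to pH 6.6 with DMSO (acidosis). They entered the statistical fit to help estimate the spread, and their levels are given where they place an SRPIN340 value. Of 19978 genes in the deposited table, the 14863 that passed an expression filter were tested.

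SR proteins are splicing factors with a domain rich in serine and arginine. SRPKs phosphorylate this domain in the cytoplasm, which allows import into the nucleus by transportin-SR (TNPO3), and CLK kinases phosphorylate it further in nuclear speckles, the bodies where splicing factors are stored. Type I interferons act by another route: their receptor activates JAK kinases, and a complex that holds STAT2 and IRF9 binds the interferon-stimulated response element (ISRE) in promoters of antiviral genes. RIG-I-like receptors, which detect viral RNA in the cytoplasm, drive the same genes through the IRF factors and are themselves induced by interferon.

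The libraries held 13615816 to 24110460 estimated counts. In control and SRPIN340 samples alone, the totals were 21788457 to 24110460, and 1 count was worth 0.0351 to 0.0380 CPM (counts scaled to the normalized library total). Of 10 transcription factor genes typical of the embryonic kidney lineage, 9 were at 1 CPM or more in all 4 samples, and none of 8 blood cell, 5 endothelial and 4 hepatocyte markers was. At that level in all 4 samples were also 4 of 6 fibroblast markers, with sums of 45.5 to 58.3 CPM, and 3 of 8 markers of sympathetic neuroblastoma (SH-SY5Y, another line of the study), with sums of 44.5 to 58.0 CPM. The summed level of the kidney lineage genes was 315 and 317 CPM in control and 274 and 270 CPM with SRPIN340. Bulk RNA does not separate fewer cells of a kind from less RNA per cell. By the study's methods the samples of a group are biological repeats, each sequenced in replicates, and how these were pooled into the values of a sample is not given in the sources used here. The p-values measure the spread between these few samples.

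With 2 samples a side, the spread between replicates set what could be seen. The median absolute log2 difference was 0.157 between the control samples and 0.117 between the SRPIN340 samples, against 0.180 between the means of the groups. Genes were classed by their mean level over all 7 samples, acidosis included, here and wherever genes over 100 CPM are named. In genes under 1 CPM, the medians were 0.519 and 0.477 within groups and 0.438 between them. For the 2274 genes over 100 CPM, the medians were 0.10 and 0.0639 within groups and 0.143 between them. A mean of 2 samples varies less than a single sample, so these medians are set side by side as a description and not as a test. To check that no library had been deposited under 2 names, the counts of each pair were compared over genes, and the chi-square per degree of freedom was 12 in control and 6.77 with SRPIN340, more than counting noise alone would give.

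**Figure D1:**
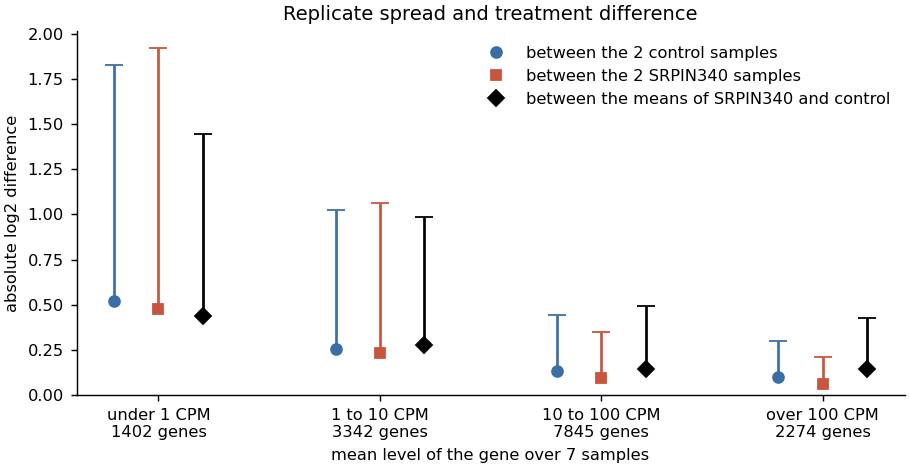
Absolute log2 difference of genes in 4 classes of mean level (horizontal axis, CPM), between the 2 control samples, between the 2 SRPIN340 samples and between the group means. The level is the mean over all 7 samples. Symbols are medians over genes and bars reach to the 95th percentile; medians within groups are 0.519 and 0.477 below 1 CPM and 0.10 and 0.0639 over 100 CPM, and those between group means, which average 2 samples, 0.438 and 0.143.

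Few genes were called with SRPIN340, and the called falls were led by interferon genes. With 2 samples a side, a gene that was not called may still have changed. At an unadjusted p under 0.05 in the edgeR test there were 2621 genes. Genes were called when the adjusted p was under 0.05 and the log2 fold change beyond 1 in either direction, which held for 19 higher (0.128% of those tested) and 29 lower (0.195%), 0.323% together. Of the 29 genes called lower, 22 belonged to the lists of interferon effectors, nucleic acid sensors and interferon signaling genes, and 0 of the 19 genes called higher did. Together with an MHC class I list, these lists held 124 of the 14863 genes tested. They were chosen with earlier results of these data known. Without the limit on the fold, 342 genes (2.3%) passed the adjusted p, 114 higher (0.767%) and 228 lower (1.53%), with a median absolute log2 fold change of 0.53. In every one of the 342 genes the samples of the groups did not overlap. By that criterion alone 27.3% of tested genes were higher and 26.8% lower, so such a separation of 2 against 2 samples was common.

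The excess of falls over rises depended on the scaling. When total counts alone set the scale, 161 genes passed higher and 162 lower, and after cyclic loess scaling, which removes a trend of the fold change with level, 106 and 105. The median log2 fold change ran from 0.074 in genes of 1 to 10 CPM to -0.057 in genes over 100 CPM. Of the genes over 100 CPM, 6.07% passed lower and 1.67% higher. This class rests on the mean over all 7 samples. It also holds genes that were low at pH 7.4, such as ANKRD1 (means of 2.02 CPM in control and 7.50 CPM with SRPIN340). In a fit with a pH 7.4 sample left out, 1 sample stands alone in its group, and far fewer genes passed among all tested genes. A low count of a list in such a fit, here and below, does not by itself set that list apart. Genes called higher numbered 9 without control replicate 1, 3 without control replicate 2, 3 and 6 without SRPIN340 replicates 1 and 2, and 30 without acidosis replicate 2. Genes called lower numbered 20 without control replicate 1 and 8 and 18 without SRPIN340 replicates 1 and 2. Of 109 named genes that passed, 34 still passed without control replicate 1, 34 without control replicate 2, 11 without SRPIN340 replicate 1 and 20 without SRPIN340 replicate 2, and all 109 kept their sign.

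**Figure D2:**
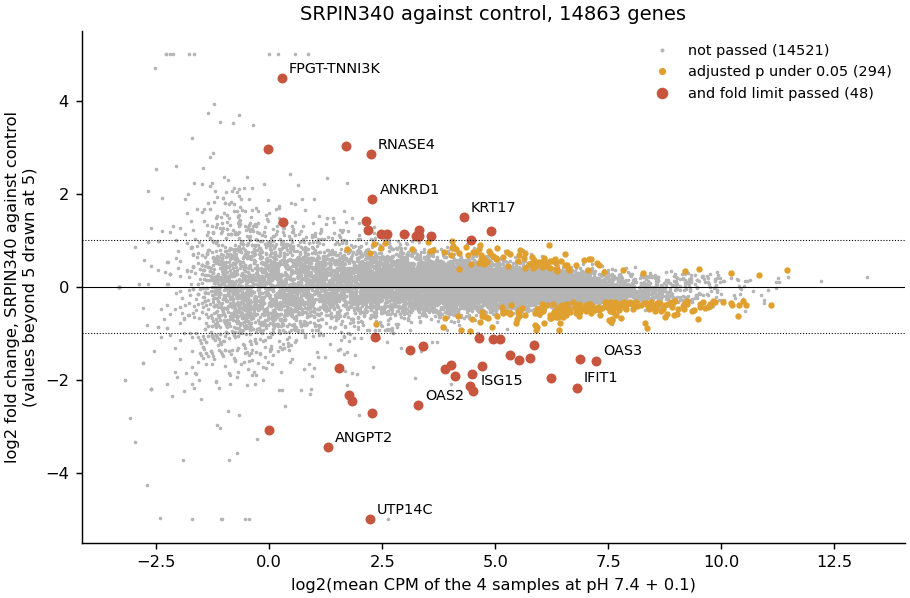
Log2 fold change of SRPIN340 against control (vertical axis, values beyond 5 drawn at 5) by mean level over the 4 samples at pH 7.4 (horizontal axis, log2 of CPM + 0.1) for 14863 genes. Red points are the 48 called genes and orange points the 294 others with an adjusted p under 0.05; dotted lines mark the fold limit of 1. Among well-expressed genes (right), orange points are more frequent below 0 than above it.

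IFIT1, which encodes a protein that binds viral RNA lacking the host cap, had the smallest adjusted p together with OAS3 and ISG15. IFIT1 (ENSG00000185745.10, chr10:89392546-89406487 in GRCh38) was at 198 and 166 CPM in control and at 36.0 and 45.3 CPM with SRPIN340. This was a 4.47-fold fall, a log2 fold change of -2.16 with a standard error of 0.14 (adjusted p = 0.000463, edgeR quasi-likelihood test with Benjamini-Hochberg adjustment). Its neighbours fell with it: IFIT3 went from 132 and 106 CPM to 27.7 and 33.5 CPM (log2 fold change -1.96, adjusted p = 0.00225). IFIT2 went from 42.5 and 37.5 CPM to 12.9 and 11.6 CPM (-1.71, adjusted p = 0.00152). In all 3 genes the higher SRPIN340 sample was far below the lower control sample. IFIT5, from the same cluster, also fell, from 86.7 and 85.1 CPM to 44.2 and 56.1 CPM (-0.78, adjusted p = 0.0227), below the fold limit.

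The oligoadenylate synthetases, which sense double-stranded RNA, gave 3 called falls. OAS3 (chr12:112938051-112976460) was at 241 and 206 CPM in control and at 69.2 and 79.9 CPM with SRPIN340 (-1.59, standard error 0.11, adjusted p = 0.000463). OAS1 went from 38.7 and 32.0 CPM to 6.45 and 9.68 CPM (-2.13, adjusted p = 0.00601) and OAS2 from 17.7 and 15.3 CPM to 2.36 and 3.30 CPM (-2.54, adjusted p = 0.00424). These 3 genes lie next to each other on chromosome 12. OASL, of the same family, had a log2 fold change of -1.39 but did not pass (adjusted p = 0.0628) at mean levels of 4.62 CPM in control and 1.76 CPM with SRPIN340.

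ISG15, a ubiquitin-like protein that is conjugated to newly made proteins, was also among the smallest adjusted p. ISG15 (chr1:1001138-1014540) was at 34.7 and 40.5 CPM in control and at 8.18 and 7.82 CPM with SRPIN340 (-2.23, standard error 0.15, adjusted p = 0.000463). Of the enzymes that handle it, HERC5, its ligase, was lower by a log2 fold change of -0.55 and USP18, which removes it, of -0.57 (both adjusted p = 0.0354). Its activating enzyme UBA7 and conjugating enzyme UBE2L6 did not pass, with log2 fold changes of -1.47 (adjusted p = 0.194) and -0.13 (adjusted p = 0.783).

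IFI6, a mitochondrial and ER membrane protein, went from 177 and 175 CPM to 56.4 and 63.4 CPM (-1.55, adjusted p = 0.000576). The membrane proteins IFITM1 and IFITM3, which block virus entry, lie on chromosome 11 and fell by 1.46 and 1.09 (adjusted p = 0.00225 and 0.00913). RSAD2 (viperin) went from 28.0 and 26.7 CPM to 5.45 and 8.96 CPM (-1.92, adjusted p = 0.00424). Further effectors called lower were MX2, XAF1, IFI44, IFI44L, IFI27, BST2 (tetherin), SP110 and HELZ2, with log2 fold changes from -2.72 for MX2 to -1.11 for HELZ2. IFITM1 shares exons with another annotated gene, so its counts could be split between both.

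RIGI, the RNA sensor RIG-I, fell from 73.5 and 64.7 CPM to 22.1 and 24.3 CPM (-1.57, standard error 0.13, adjusted p = 0.000878). RIGI too shares exons with another annotated gene. IRF7, the factor that amplifies interferon production, went from 22.0 and 23.2 CPM to 6.04 and 7.25 CPM (-1.76, adjusted p = 0.0023). The sensor MDA5 (IFIH1) fell by 0.68 (adjusted p = 0.0494), TRIM25, which ubiquitinates RIG-I, by 0.53 (adjusted p = 0.0412), ADAR by 0.38 (adjusted p = 0.0298) and IFI16 by 0.47 (adjusted p = 0.0483). Of 18 sensing genes tested, 6 passed lower (33.3%, against 1.53% of all tested genes) and 0 higher. Without SRPIN340 replicate 1, RIGI alone of these passed, and without any 1 of the other pH 7.4 samples 2 did. The adaptors and kinases that carry the signal were near 0: MAVS had a log2 fold change of 0.16 (adjusted p = 0.269), TBK1 0.011 (adjusted p = 0.99) and IRF3 0.038 (adjusted p = 0.924).

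Of the receptor and JAK-STAT genes, 3 of 21 genes passed, all lower (14.3%, against 1.53% of all tested genes). IRF9 went from 45.3 and 48.7 CPM to 19.6 and 23.3 CPM (-1.13, adjusted p = 0.00831), though it shares exons with another annotated gene. USP18 is given above. STAT2, which acts in a complex with IRF9, was at -0.41 and did not pass (adjusted p = 0.0619). The receptor subunits IFNAR1 and IFNAR2 had log2 fold changes of 0.12 and 0.33 (adjusted p = 0.678 and 0.288). The interferon genes IFNB1, IFNL1, IFNL2 and IFNL3 were under the expression filter. Of the 3, 0 passed without either SRPIN340 sample and 1 without either control sample. The median of the 21 genes was 0.00049, close to the 0.0024 of all tested genes.

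Of 69 interferon effectors listed, 67 were tested, 30 passed lower (44.8%, against 1.53% of all tested genes) and 0 higher, and 19 were called lower (28.4%, against 0.195%). Their median log2 fold change was -0.86. In 58 of the 67 (86.6%, against 26.8% of all tested genes) both SRPIN340 samples were below both control samples. Members that passed below the fold limit were IFIT5, HERC5, SAMD9, PARP9, DTX3L, PARP14, LGALS3BP, PML, IFIH1 and PNPT1, among others. Some effectors had values above 0 or near it: GBP2 had a log2 fold change of 1.06 (adjusted p = 0.258) and CD74 of 0.90 (adjusted p = 0.282), both at under 4 CPM, and ISG20, LAMP3 and TNFSF10 had samples that overlapped. MX1, HERC6 and PLSCR1 were at -0.94, -0.99 and -0.89 with adjusted p from 0.0651 to 0.0984. The number of effectors called lower was 12 without control replicate 1, 6 without SRPIN340 replicate 1 and 12 without SRPIN340 replicate 2.

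MHC class I presentation genes, many of which interferon also induces, gave 1 fall and 1 rise. Of 20 tested, CALR, the chaperone calreticulin, passed lower (-0.51, adjusted p = 0.0056) and the peptidase ERAP2 passed higher (0.43, adjusted p = 0.0429). HLA-B, HLA-C and B2M had log2 fold changes from -0.15 to 0.078, and none passed. Over the 4 interferon and antigen presentation lists, 124 genes were tested, of which 38 passed lower and 1 higher. Of all tested genes, 1.53% passed lower and 0.767% higher.

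**Figure D3:**
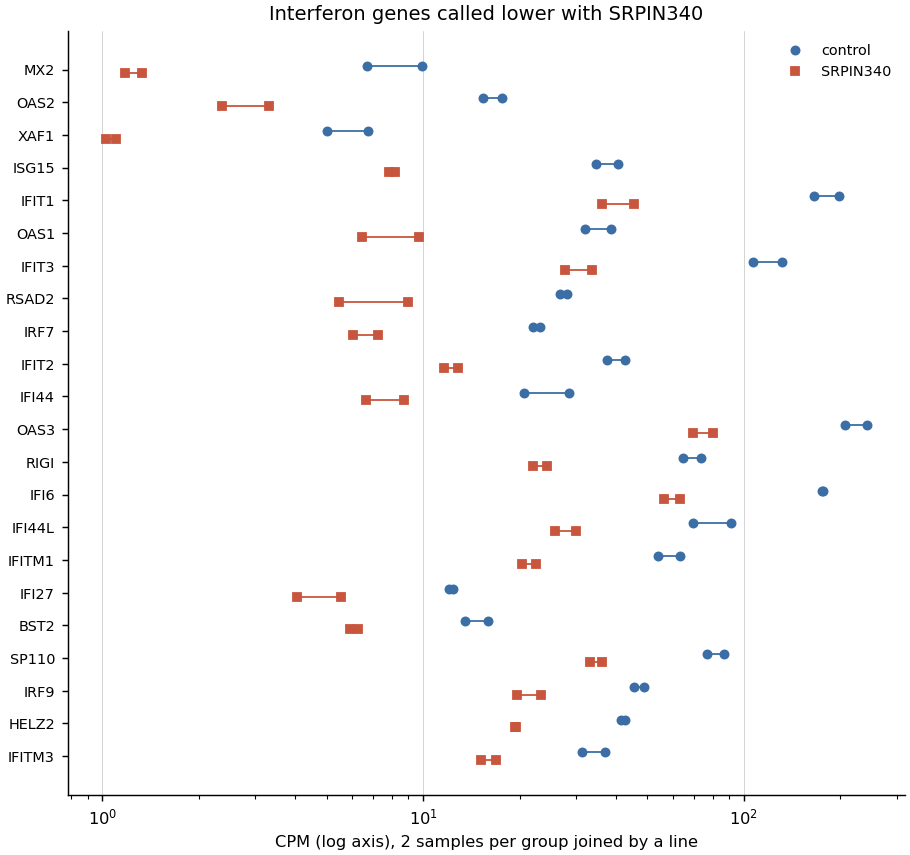
Level of the 22 interferon genes called lower (vertical axis) in each sample (horizontal axis, CPM on a log scale). Blue circles are the 2 control and red squares the 2 SRPIN340 samples, joined within a group; the groups do not overlap in any of the 22 genes, and genes are ordered by log2 fold change from MX2 (-2.72) to IFITM3 (-1.09).

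The promoters of 5 of these genes are shown, to set the fall of these genes beside the letters of the response element that the complex of STAT2 and IRF9 is known to bind. Each is the 300-base window around the start site that RefSeq annotates, 5′ to 3′ on the strand of the gene, in build GRCh38.p14. Capitals mark matches to the core of the ISRE, which is 2 copies of GAAA with any 2 bases between them, or on the other strand 2 copies of TTTC spaced alike. Overlapping matches run together. The windows are chr10:89392373-89392672 (plus strand) for IFIT1, chr10:89327747-89328046 (plus) for IFIT3, chr12:112938224-112938523 (plus) for OAS3, chr1:1013247-1013546 (plus) for ISG15 and chr1:27672143-27672442 (minus) for IFI6.
IFIT1: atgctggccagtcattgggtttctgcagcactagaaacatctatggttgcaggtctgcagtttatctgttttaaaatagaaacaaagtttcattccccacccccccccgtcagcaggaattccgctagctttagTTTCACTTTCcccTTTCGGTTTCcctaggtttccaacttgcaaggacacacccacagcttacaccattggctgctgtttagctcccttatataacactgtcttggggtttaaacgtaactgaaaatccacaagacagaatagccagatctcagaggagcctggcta
IFIT3: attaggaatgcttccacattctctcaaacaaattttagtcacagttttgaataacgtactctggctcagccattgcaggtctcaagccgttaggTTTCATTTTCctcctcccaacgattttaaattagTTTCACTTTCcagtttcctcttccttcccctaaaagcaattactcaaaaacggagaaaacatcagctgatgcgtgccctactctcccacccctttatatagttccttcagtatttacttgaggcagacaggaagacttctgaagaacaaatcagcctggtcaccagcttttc
OAS3: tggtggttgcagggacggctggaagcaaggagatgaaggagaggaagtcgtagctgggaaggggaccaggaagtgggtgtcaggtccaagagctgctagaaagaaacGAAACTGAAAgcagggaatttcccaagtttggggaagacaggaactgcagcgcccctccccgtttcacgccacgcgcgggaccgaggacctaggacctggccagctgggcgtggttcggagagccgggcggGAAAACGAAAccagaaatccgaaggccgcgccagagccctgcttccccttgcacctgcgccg
ISG15: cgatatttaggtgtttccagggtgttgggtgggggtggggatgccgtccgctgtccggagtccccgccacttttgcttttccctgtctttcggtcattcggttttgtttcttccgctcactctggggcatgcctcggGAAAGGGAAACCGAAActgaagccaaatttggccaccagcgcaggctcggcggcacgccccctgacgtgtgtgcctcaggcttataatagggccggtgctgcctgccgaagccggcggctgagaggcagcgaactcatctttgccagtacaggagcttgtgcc
IFI6: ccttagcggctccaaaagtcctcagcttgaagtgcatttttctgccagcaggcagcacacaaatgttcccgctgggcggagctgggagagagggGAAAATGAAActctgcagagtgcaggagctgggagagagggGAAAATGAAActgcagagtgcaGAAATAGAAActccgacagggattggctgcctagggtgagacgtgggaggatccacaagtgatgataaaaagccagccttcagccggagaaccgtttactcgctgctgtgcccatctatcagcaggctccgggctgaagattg
IFIT1, IFIT3, OAS3 and ISG15 each held 2 matches and IFI6 held 3. In IFIT1 the matches began 116 and 103 bases before the start site and in ISG15 113 and 107 bases before it.

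RefSeq windows were at hand for 18 of the 22 interferon genes called lower, and 11 of the 18 (61.1%) held at least 1 match on either strand. Of all 27305 promoter windows of that length, 3.65% did, and of the 11825 windows of tested genes 2.88%. In interferon effectors that were tested and not called, the share was 24 of 36 (66.7%), so that matches were no rarer there than in the called genes. Among the called genes without a match of these letters were RIGI, OAS1, RSAD2, SP110, HELZ2, IRF9 and XAF1. Of the 14 windows of genes called higher 0 held a match.

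The 7 other genes called lower came from outside the interferon lists. ANGPT2, a secreted ligand of the TIE2 receptor on vessels, was at 4.25 and 4.39 CPM in control and 0.405 and 0.380 CPM with SRPIN340 (-3.44, standard error 0.40, adjusted p = 0.00547). The samples within each group were close to each other, and the groups lay about 10.9-fold apart. CEACAM1, a cell adhesion receptor, was low throughout, at 2.27 and 0.948 CPM in control and 0.221 and 0.152 CPM with SRPIN340 (-3.07, adjusted p = 0.0483). H2BC26, a histone H2B gene, went from 7.10 and 3.90 CPM to 0.995 and 1.18 CPM (-2.33, adjusted p = 0.00973).

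The remaining 4 overlap other genes, and their reads can be split between the overlapping genes. UTP14C, a copy of a ribosome assembly gene, had 517 counts over the control samples and 0 over the SRPIN340 samples. Against a floor of 3 counts over the group, it was at least 164-fold lower (adjusted p = 0.00225). UTP14C shares exons with ALG11. NPEPL1 shares exons with a readthrough gene, MAMDC4 with PHPT1, and the unnamed gene ENSG00000283782 with RAD50. Their log2 fold changes were -1.08, -1.75 and -1.87. In such loci a shift of reads between genes cannot be told apart from a change of the gene.

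Of the 19 genes called higher, ANKRD1 had the smallest adjusted p. ANKRD1 encodes a nuclear ankyrin repeat protein of muscle and is a known target of YAP, the effector of the Hippo pathway, and its DNA-binding partner TEAD. ANKRD1 (ENSG00000148677.7, chr10:90912096-90921087) was at 1.80 and 2.25 CPM in control and at 8.55 and 6.45 CPM with SRPIN340 (1.89, standard error 0.16, adjusted p = 0.00152). The groups were 3.7-fold apart at a low level. Its promoter window (chr10:90921038-90921337, minus strand) is shown with capitals for GGAATG, the TEAD motif, which 14% of all windows hold on either strand.
ANKRD1: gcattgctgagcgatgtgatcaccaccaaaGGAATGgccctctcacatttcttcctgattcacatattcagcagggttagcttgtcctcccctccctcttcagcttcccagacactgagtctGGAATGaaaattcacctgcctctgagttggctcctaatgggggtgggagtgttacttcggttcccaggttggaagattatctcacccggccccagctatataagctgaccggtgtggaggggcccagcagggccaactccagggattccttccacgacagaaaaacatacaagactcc
It held 2 matches. It was 1 of 14 windows of genes called higher to hold any (7.14%), and of the windows of 21 tested YAP/TEAD targets 9 did (42.9%).

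Of the other YAP/TEAD targets 1 passed. CCN1, a matrix protein, passed at 22.5 and 21.9 CPM against 32.0 and 30.4 CPM (0.49, adjusted p = 0.00839). Of 29 targets tested, 2 passed higher (6.9%, against 0.767% of all tested genes) and 0 lower, and the median was 0.18. CCN2, the usual marker beside CCN1, had a log2 fold change of 0.51 (adjusted p = 0.0934) and TGFB2 of 0.68 (adjusted p = 0.0866). None of the 17 genes of the pathway itself passed, YAP1 being at 0.11 (adjusted p = 0.752).

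Genes of TNF receptor and NF-kB signaling gave 4 rises and 0 falls among 29 tested (13.8% higher, against 0.767% of all tested genes). When the 4 samples at pH 7.4 were fitted alone, 1 gene of the list passed higher, while 236 of all genes did. TNFRSF12A, the receptor of the cytokine TWEAK, was at 5.30 and 4.39 CPM in control and at 11.6 and 9.64 CPM with SRPIN340 (1.14, standard error 0.15, adjusted p = 0.00831). CXCL8, the neutrophil chemokine interleukin 8, went from 0.612 and 0.632 CPM to 1.81 and 1.48 CPM (1.39, adjusted p = 0.0227). The subunits RELB and REL passed below the fold limit, at 0.81 (adjusted p = 0.0395) and 0.61 (adjusted p = 0.0407). The main subunits RELA and NFKB1 were at -0.11 and -0.24 (adjusted p = 0.703 and 0.41) and the inhibitor NFKBIA at 0.17 (adjusted p = 0.518). Without SRPIN340 replicate 1 or control replicate 2, 0 of the 4 passed. The median of the list was 0.24, and in 18 of 29 genes both SRPIN340 samples lay above both control samples (62.1%, against 27.3% of all tested genes).

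KRT17, a keratin of stressed and basal epithelium, went from 12 and 8.64 CPM to 34.4 and 23.8 CPM (1.5, standard error 0.19, adjusted p = 0.00762). Its replicates were far apart in both groups, but the lower SRPIN340 sample was above the higher control sample. Among 19 keratin and filament genes tested, NEFM also passed higher (0.55, adjusted p = 0.0284) and LMNB1, a nuclear lamin, lower (-0.42, adjusted p = 0.0348). PPL, periplakin of the cell cortex, went from 13.1 and 15.9 CPM to 28.0 and 30.7 CPM (1.02, adjusted p = 0.0354). BNC1, a zinc finger factor of squamous epithelium, went from 5.94 and 5.86 CPM to 13.2 and 14.5 CPM (1.23, adjusted p = 0.0181).

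Secreted proteins among the rises were PLAU, the urokinase protease, and GREM1, an inhibitor of BMPs. PLAU was at 2.41 and 2.91 CPM in control and 6.49 and 6.04 CPM with SRPIN340 (1.23, adjusted p = 0.0323). GREM1 was at 6.52 and 5.48 CPM and at 13 and 12.6 CPM (1.09, adjusted p = 0.0278). C11orf96, whose function is little known, went from 2.34 and 2.32 CPM to 6.93 and 5.54 CPM (1.42, adjusted p = 0.00991). GFPT2, the first enzyme of the hexosamine pathway, rose by 1.12, KCNJ4, a potassium channel, by 1.15, FBXO27, an F-box protein, by 1.15, GLIPR1 by 1.10 and ZDHHC23, a palmitoyltransferase, by 1.09, with adjusted p from 0.037 to 0.0481. With 1 sample left out, the log2 fold change of ZDHHC23 ran from 0.76 to 1.36 and that of GLIPR1 from 0.88 to 1.29. For GFPT2 it ran from 0.98 to 1.24, and those of FBXO27 and KCNJ4 stayed above 1. SYT5, a synaptotagmin, was at 0.252 and 0.140 CPM in control and 1.40 and 1.75 CPM with SRPIN340 (2.97, adjusted p = 0.0354). With 7 and 4 counts in control and fewer in acidosis, it met the expression filter only through the SRPIN340 samples, where it was high.

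In 4 other genes called higher, shared exons or unequal replicates made the value uncertain as well. RNASE4, a secreted ribonuclease, shares exons with ANG; it was at 1.3 and 0.948 CPM in control and 6.63 and 9.72 CPM with SRPIN340 (2.86, adjusted p = 0.00516). FPGT-TNNI3K is a readthrough of FPGT and TNNI3K, with 5 counts over the control samples and 114 over the SRPIN340 samples. That is a ratio of 24, with a 95% counting interval from 9.98 to 75.3. FPGT-TNNI3K too met the expression filter only through the SRPIN340 samples. MATR3, an RNA-binding protein of the nuclear matrix, stands under 2 identifiers that share exons: ENSG00000280987 rose from 21.7 and 14.8 CPM to 32.9 and 50.9 CPM (1.2, adjusted p = 0.0402), and the other, with most of the counts, went from 533 and 435 CPM to 406 and 400 CPM without passing. In DNAH7, a dynein of cilia, the SRPIN340 samples were 2.25 and 8.92 CPM, and the adjusted p of 0.0498 was the largest among the called genes. Its log2 fold change ran from 1.73 to 3.72 with 1 sample left out.

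**Figure D4:**
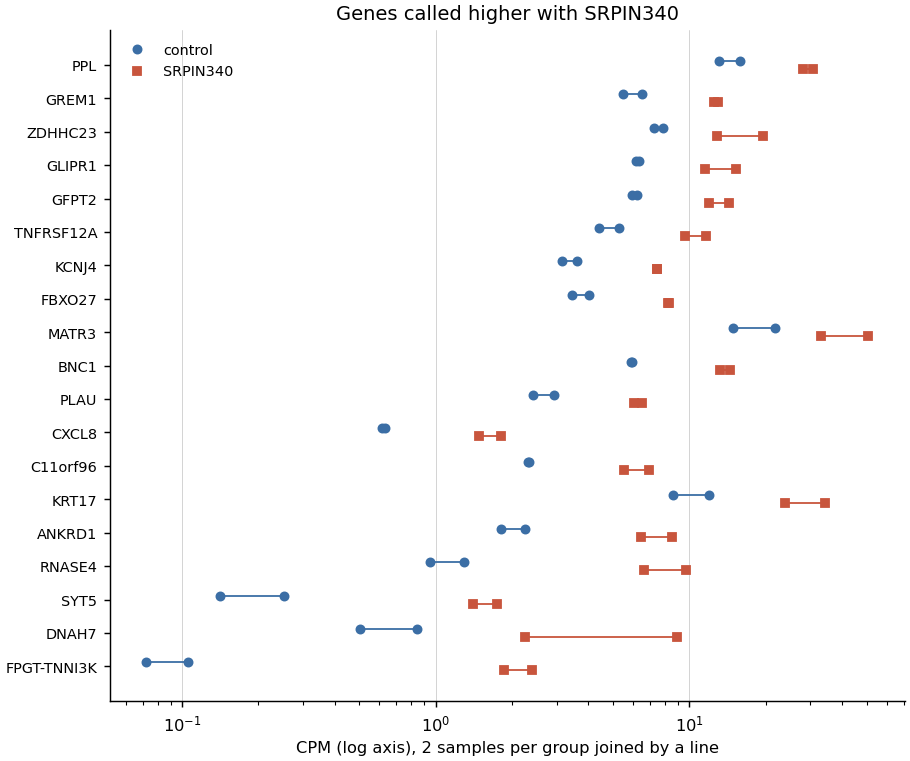
Level of the 19 genes called higher (vertical axis, ordered by log2 fold change from PPL at 1.02 to FPGT-TNNI3K at 4.49) in each sample (horizontal axis, CPM on a log scale). Blue circles are the 2 control and red squares the 2 SRPIN340 samples; most lie below 20 CPM, and the SRPIN340 samples of DNAH7 are the farthest apart.

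The mRNAs of the inhibitor's targets were close to their control levels. SRPK1 was at 265 and 241 CPM in control and at 280 and 286 CPM with SRPIN340 (0.16, adjusted p = 0.28). SRPK2 was at 98.1 and 91.8 CPM and at 91.3 and 88.1 CPM (-0.081, adjusted p = 0.663), and SRPK3 was under the expression filter. These are mRNA levels and carry no information on kinase activity.

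Of the 12 kinase and import genes tested, CLK4 alone passed, and it did so with 1 of the 7 samples left out but not with any other. It went from 19 and 17.1 CPM to 11.7 and 11 CPM (-0.67, adjusted p = 0.0405). CLK1, whose own pre-mRNA is regulated by splicing, was at 41.6 and 39.6 CPM and at 30.8 and 32.6 CPM (-0.36, adjusted p = 0.0858). PRPF4B had a log2 fold change of -0.17 (adjusted p = 0.237), DYRK1B of -0.30 (adjusted p = 0.311) and the importer TNPO3 of -0.18 (adjusted p = 0.257). CLK2, CLK3, DYRK1A, DYRK2 and DYRK3 had overlapping groups and values between -0.041 and 0.010, whose sign changed with the scaling or with the samples used.

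Among the SR proteins, 3 of 14 passed, all lower and all below the fold limit. That is 21.4%, against 1.53% of all tested genes and 6.07% of those over 100 CPM. SRSF6 went from 190 and 193 CPM to 127 and 126 CPM (-0.60, standard error 0.073, adjusted p = 0.00601), TRA2A from 96.5 and 82.1 CPM to 59.7 and 58.3 CPM (-0.60, adjusted p = 0.0261) and SRSF2 from 301 and 285 CPM to 227 and 225 CPM (-0.37, adjusted p = 0.0317). SRSF6, which binds exonic splicing enhancers, had the smallest adjusted p of the family, with replicates that lay close together in both groups. It shares exons with another annotated gene, so its counts could be split between both. SRSF1, the founding member, was at 481 and 454 CPM in control and 344 and 351 CPM with SRPIN340 and just missed the limit (-0.43, adjusted p = 0.053). SRSF10, SRSF9 and SRSF5 had log2 fold changes of -0.30, -0.31 and -0.28 (adjusted p from 0.0698 to 0.224).

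The other SR proteins lay closer to control. SRSF3, SRSF7, SRSF11 and TRA2B had log2 fold changes of -0.11, -0.12, -0.17 and -0.15, with adjusted p from 0.257 to 0.496. SRSF12 was at 0.26 (adjusted p = 0.314), and SRSF4 and SRSF8 had overlapping samples and values of 0.013 and -0.010. Over the 14 genes the median was -0.22, and in 11 (78.6%) both SRPIN340 samples were below both control samples, against 26.8% of all tested genes and 44.2% of those over 100 CPM. None of the 14 passed without either SRPIN340 replicate, 1 did without control replicate 1 and 2 did without control replicate 2.

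The hnRNPs, which often oppose SR proteins at splice sites, gave 10 falls and 0 rises among 27 tested (37.0% lower, against 6.07% of all genes over 100 CPM). The largest was HNRNPM, from 490 and 365 CPM to 226 and 239 CPM (-0.88, standard error 0.14, adjusted p = 0.0182), with control samples that were themselves unequal. HNRNPH1 (-0.57, adjusted p = 0.0305), HNRNPL (-0.53, adjusted p = 0.00785) and HNRNPD (-0.48, adjusted p = 0.0387) followed. HNRNPL shares exons with another annotated gene. HNRNPA1, the most studied of the family, was at 1778 and 1672 CPM and at 1651 and 1580 CPM and did not pass (-0.095, adjusted p = 0.43). The median of the list was -0.28, and after cyclic loess scaling 3 of its genes passed lower. Without either SRPIN340 replicate 0 passed, without control replicates 1 and 2 in turn 1 and 4, and without acidosis replicate 1 also 4.

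Of 29 nuclear speckle components, 6 passed lower and 0 higher: SRSF2, U2AF2, RBM39, DDX39B, ALYREF and PRPF8, with log2 fold changes from -0.51 to -0.32. The speckle scaffold proteins did not pass, SON being at -0.28 (adjusted p = 0.0665) and SRRM2 at 871 and 996 CPM against 920 and 1011 CPM (0.049, adjusted p = 0.866). None of 17 core snRNP proteins passed (median -0.15), and of 18 decay factors RBM8A did (-0.42, adjusted p = 0.0227). Over the SR protein, hnRNP and speckle lists together, 68 genes were tested, 18 passed lower and 0 higher. These are mostly genes over 100 CPM, of which 6.07% passed lower in all, and after cyclic loess scaling 2 of the 29 speckle genes passed. Of the speckle list, at most 1 gene passed with any pH 7.4 sample left out, 3 without acidosis replicate 3 and 11 without acidosis replicate 2.

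**Figure D5:**
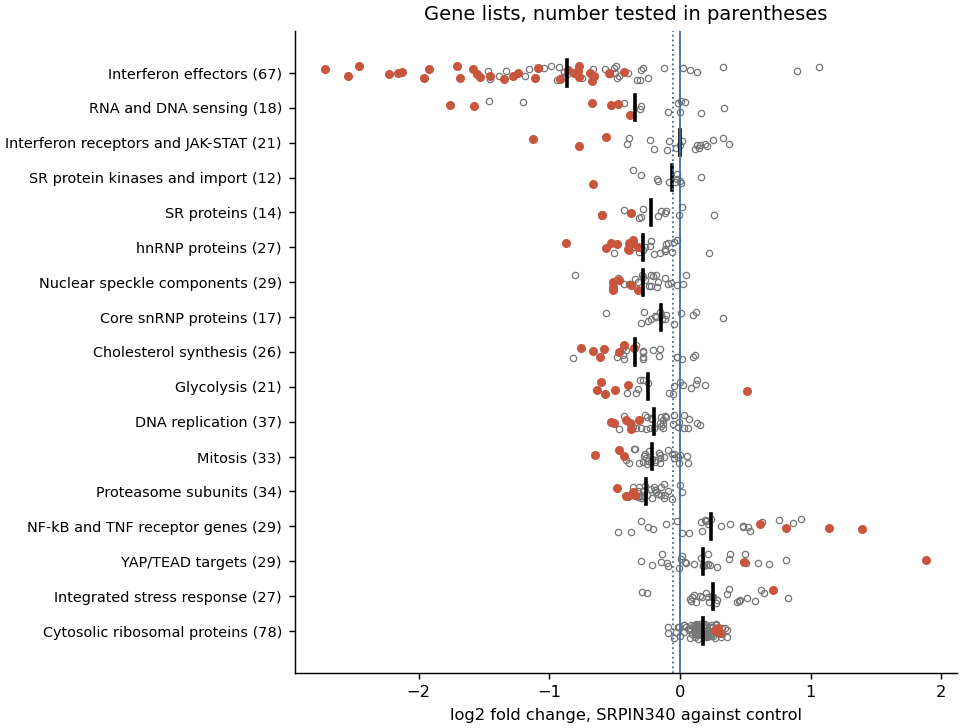
Log2 fold change of SRPIN340 against control (horizontal axis) for the members of 17 gene lists (vertical axis, number tested in parentheses). Filled red points passed an adjusted p of 0.05, open points did not, and black bars are list medians; the solid blue line is the median of all tested genes (0.0024) and the dotted line that of genes over 100 CPM (-0.057). Interferon effectors (median -0.86) extend farthest to the left.

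Among metabolic genes, the glycolysis list gave 5 falls (23.8%, against 1.53% of all tested genes and 6.07% of those over 100 CPM) and 1 rise. PKM, the pyruvate kinase whose alternative exons are regulated by hnRNPs and SR proteins, went from 1624 and 1611 CPM to 1053 and 1033 CPM (-0.63, standard error 0.051, adjusted p = 0.000878). It had the smallest adjusted p of any gene below the fold limit. Of 21 glycolysis genes, TPI1 (-0.57, adjusted p = 0.00384), ALDOA (-0.60, adjusted p = 0.00831), LDHA (-0.50, adjusted p = 0.00831) and ENO1 (-0.40, adjusted p = 0.00794) also passed lower, and ENO2, the neuronal enolase, higher (0.51, adjusted p = 0.0323). ALDOA shares exons with another annotated gene. After cyclic loess scaling the counts were again 5 lower and 1 higher, while 1 passed lower without either SRPIN340 replicate. TXNIP, a sensor of glucose use, went from 30.9 and 25.9 CPM to 15.4 and 14 CPM (-0.95, adjusted p = 0.0318).

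Cholesterol synthesis genes gave 7 falls and 0 rises among 26 tested, with a median of -0.35. That is 26.9% lower, against 1.53% of all tested genes and 6.07% of those over 100 CPM, which 15 of the 26 were. ACAT2, the thiolase that starts the pathway, fell by 0.76 (adjusted p = 0.00424) and NSDHL, a later enzyme, by 0.67 (adjusted p = 0.0182). NSDHL was at 94.2 and 88.8 CPM in control and at 59.6 and 55.7 CPM with SRPIN340. After cyclic loess scaling 4 of the list passed lower, and 2 did without either control replicate and 0 without either SRPIN340 replicate. In a list of 18 fatty acid synthesis genes chosen after the values were seen, FADS2, SCD and ACLY passed lower, FADS2 by 0.72 (adjusted p = 0.00225). These are 16.7% of the list, against 1.53% of all tested genes and 6.07% of those over 100 CPM, which 9 of the 18 were.

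Stress genes passed in both directions. Asparagine synthetase, ASNS, a target of ATF4 in the integrated stress response, rose from 65.9 and 75.6 CPM to 113 and 119 CPM (0.71, adjusted p = 0.00794), the 1 gene of 27 to pass. The median of the list was 0.25, and 20 of 27 (74.1%) had both SRPIN340 samples above both control samples, against 27.3% of all tested genes. ER chaperones fell, with HSPA5 (BiP) at -0.35 (adjusted p = 0.0227), HYOU1 at -0.43 (adjusted p = 0.0181), PDIA4 at -0.36 (adjusted p = 0.0323) and CALR as above, 4 of 22 tested (18.2%, against 1.53% of all tested genes and 6.07% of those over 100 CPM). Of the ER list 2 passed lower after cyclic loess scaling, 1 without either control replicate and 0 without either SRPIN340 replicate. Of 24 heat shock genes, HSPB8, a small chaperone of selective autophagy, rose from 14.1 and 14.6 CPM to 25.8 and 26.5 CPM (0.86, adjusted p = 0.0049). HSPA8, DNAJA1 and STIP1 fell by 0.42, 0.47 and 0.32. That is 4.17% higher and 12.5% lower, against 0.767% and 1.53% of all tested genes. Of genes over 100 CPM, which 15 of the 24 were, 1.67% passed higher and 6.07% lower. No heat shock gene passed lower with any pH 7.4 sample left out, and neither ASNS nor HSPB8 passed without either SRPIN340 replicate. None of 20 NRF2 targets, 5 metallothioneins or 11 xenobiotic response genes passed, and of 26 p53 targets BAX did (-0.63, adjusted p = 0.0205).

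Cell cycle genes that passed were few and all lower. Of 37 DNA replication genes 6 passed lower (16.2%), among them LIG1 (-0.53, adjusted p = 0.0405), MCM5 (-0.50, adjusted p = 0.0308) and TYMS (-0.41, adjusted p = 0.0227). Of all tested genes 1.53% passed lower, and of those over 100 CPM, which 15 of the 37 were, 6.07%. Of 33 mitosis genes 3 passed lower, KIF20A (-0.65, adjusted p = 0.00794), PLK1 (-0.47, adjusted p = 0.0305) and NDC80 (-0.43, adjusted p = 0.0378). That is 9.09%, close to the 6.07% of all genes over 100 CPM, which 19 of the 33 were. After cyclic loess scaling 1 gene of each list passed, and 0 did with any pH 7.4 sample left out. Replication-dependent histones, whose mature mRNAs mostly lack a poly(A) tail, had a median of -0.76 over 38 tested genes. But 2 passed lower (5.26%, against 1.53% of all tested genes), H1-2 (-0.76, adjusted p = 0.0183) and H2AC6 (-0.79, adjusted p = 0.0263).

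Ribosomal protein genes lay mostly above 0, by small amounts. Of 78 tested, 71 had a log2 fold change above 0, 50 (64.1%) had both SRPIN340 samples above both control samples, and 0 had the reverse. Of all tested genes 27.3% were separated upward in this way and 26.8% downward. Of those over 100 CPM, which all 78 were, the shares were 21.6% and 44.2%. Their median was 0.18, and RPL4, RPL17 and RPS25 passed (0.27, 0.29 and 0.31, adjusted p from 0.0483 to 0.0498). That is 3.85% higher, against 0.767% of all tested genes and 1.67% of those over 100 CPM. After cyclic loess scaling 19 passed higher, 7 did without acidosis replicate 2, and 0 without any other sample. The 13 genes of the mitochondrial genome had a median of 0.028 and none passed. Of 34 proteasome subunits, a list chosen after the values were seen, 5 passed lower (14.7%, median -0.26). Of all tested genes 1.53% did, and of those over 100 CPM, which 24 of the 34 were, 6.07%. After cyclic loess scaling 2 of the 34 passed lower, and fewer did with a pH 7.4 sample left out.

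Some genes with small adjusted p belonged to no list and were picked out after their values were seen. IL6R, the interleukin 6 receptor, went from 16.9 and 18.2 CPM to 34.7 and 30.9 CPM (0.90, adjusted p = 0.00438). TIMP3, a metalloproteinase inhibitor, went from 63.1 and 63.7 CPM to 94.7 and 99.1 CPM (0.61, adjusted p = 0.00613), and RHOB, a small GTPase, from 52.0 and 49.5 CPM to 111 and 79.4 CPM (0.91, adjusted p = 0.0105). HMGN2, a nucleosome-binding protein, fell from 921 and 850 CPM to 554 and 539 CPM (-0.70, adjusted p = 0.00212). Of the 342 genes that passed, 230 stood in no gene list apart from those added later.

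Of 11 genes that the study assayed by RT-PCR or with antibodies, SRSF2 passed. TRIM59, a ubiquitin ligase, was at 26.3 and 19.9 CPM in control and at 22.9 and 24.3 CPM with SRPIN340, so its samples overlapped. FGF5, a growth factor, was at 7.38 and 6.00 CPM and at 8.59 and 9.15 CPM (0.41, adjusted p = 0.548). SEMA6D, a semaphorin, was at 18.6 and 19.3 CPM and at 14.1 and 15.5 CPM (-0.36, adjusted p = 0.301), and CTNND1, p120 catenin, had a log2 fold change of -0.17 (adjusted p = 0.278). Skipping of an exon does not show in these values, which sum over transcripts. SNRPD3 was at 113 and 111 CPM and at 151 and 129 CPM (0.33, adjusted p = 0.13), MYCN had a log2 fold change of 0.46 (adjusted p = 0.499), SF3B1 at -0.22 (adjusted p = 0.172) and the reference gene TBP at 0.071 (adjusted p = 0.83).

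Set beside acidosis, the SRPIN340 levels of the leading genes did not follow one pattern. The genes were chosen for their SRPIN340 values, and the same SRPIN340 samples stand in both comparisons. Between acidosis and SRPIN340 the background is large: 14.9% of tested genes were called higher in acidosis and 19.7% lower (34.6% together), and 32.8% and 35% passed the adjusted p (67.8% together). IFIT1 stood at 5.05 ± 0.55 CPM in acidosis (SD, n = 3), below its SRPIN340 level (log2 difference -3.02, adjusted p = 1.66e-07, edgeR). ISG15 was higher in acidosis than with SRPIN340, at 19.9 ± 2.2 CPM (1.32, adjusted p = 2.75e-05), and IFI6 likewise at 119 ± 14.1 CPM (0.99, adjusted p = 2.14e-05). IFIT2 was at 11.6 ± 1.3 CPM and could not be told from its SRPIN340 level (-0.072, adjusted p = 0.673).

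Among the rises, ANKRD1 reached 1300 ± 36.5 CPM in acidosis and KRT17 751 ± 55.2 CPM, far above their SRPIN340 levels (7.43 and 4.69, adjusted p = 4.39e-10 and 3.99e-08). BNC1, SYT5, GFPT2 and FBXO27 were lower in acidosis than with SRPIN340, BNC1 at 3.77 ± 0.54 CPM (-1.89, adjusted p = 1.11e-05). PKM, which fell with SRPIN340, was at 3036 ± 39.4 CPM in acidosis (1.54, adjusted p = 1.44e-08). SRSF6 was lower than with SRPIN340, at 104 ± 3.94 CPM (-0.28, adjusted p = 0.00401), and SRSF2 higher, at 320 ± 12.1 CPM (0.50, adjusted p = 6.27e-05).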

How the data were processed

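Poly(A)-selected RNA was sequenced from 7 HEK-293 samples. A protocol field of the labels spells the inhibitor's number differently from the titles and the paper, whose SRPIN340 is used here. Per the paper's methods and the labels, the authors trimmed the reads (Trimmomatic 0.39, Trim Galore 0.6.6), quantified transcripts with Salmon 1.5.1 and aggregated them per gene with tximport. What was deposited are estimated counts without normalization, and the tximport option is not given in the sources used here. They were rounded to whole numbers. Of 19978 genes, 19977 matched GENCODE 44.

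All 7 samples entered one edgeR 4.0.16 quasi-likelihood fit (R 4.3.3, TMM, filterByExpr), with Benjamini-Hochberg adjustment over 14863 genes. A gene passed at an adjusted p under 0.05 and was called when its absolute log2 fold change also exceeded 1. Standard errors come from the test statistic.

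The members and lists were chosen with earlier results of these data known, and 3 lists (proteasome, fatty acid synthesis and RNA-binding proteins, the last not reported here) after their values were seen. Named by rule were called genes, the 4 largest passed changes of each list, and every SR kinase, SR protein and assayed gene. The 109 named genes that passed, whose stability is given, are genes named by rule. Other list members were named for their role, with values seen. For these and for genes of no list that were picked out by value, such as IL6R and HMGN2, stability is not given gene by gene. Alternatives were DESeq2 1.42.0 (the authors' tool), RLE or total-count scaling, other filters, fold limits and samples, a replicate block and, added after seeing the data, limma 3.58.1 with and without cyclic loess. The steps were tested on simulated counts. Figures were drawn with matplotlib 3.10.9. The authors' TPM filter was not applied, since gene counts carry no lengths; splicing was not analysed here. Some genes are not reported here.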

Additional observations from a re-analysis of the deposited data

How the results depend on the processing

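Of the 109 genes named that passed, all kept their sign with each of the 7 samples left out in turn, and 10 passed every time and under all other fits: IFIT1, IFIT2, OAS3, ISG15, IFI6, RIGI, RSAD2, ANKRD1, PKM and UTP14C. Genes called higher, 19, became 33 with the 4 samples at pH 7.4 alone, 10 with cyclic loess and limma-trend, 81 at a fold limit of 0.5, 114 with none and 3 to 30 with 1 sample left out. Genes called lower, 29, became 112 at a fold limit of 0.5, 228 with none and 8 to 36 with 1 sample left out; interferon effectors called lower, 19, became 29, 30 and 6 to 20. DESeq2 called 15 and 22, and passed 330 higher and 562 lower. The fit of the 4 samples passed 236 and 368. Every fit started from the same estimated counts, so passing under all of them does not bear on reads shared between genes, as in UTP14C and RIGI.

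The replicate numbers of the labels were used as a block: 5 genes were then called higher and 22 lower, 16 of them interferon effectors. Deviations of same-numbered control and SRPIN340 samples did not go together (r = 0.0051). With 2 samples a group the deviations mirror each other, so this cannot tell whether same-numbered samples were handled together.

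Values near 0 that did not pass changed sign. With total count scaling, DYRK1A was at 0.019, DYRK3 at 0.021, SRSF8 at 0.030 and CLK3 at 0.037. With cyclic loess, HNRNPA1 was at 0.021, DYRK1A at 0.023 and CLK3 at 0.021, and CLK3 was at 0.00032 in genes of at least 6 CPM. With 1 sample left out, CLK2 ran from -0.13 to 0.041, CLK3 from -0.093 to 0.083, DYRK1A from -0.070 to 0.028, DYRK2 from -0.16 to 0.16, DYRK3 from -0.15 to 0.11, SRRM2 from -0.045 to 0.15, SRSF4 from -0.058 to 0.082, SRSF8 from -0.17 to 0.13 and TRIM59 from -0.16 to 0.24. The cause of these changes was not tested. With 2 samples a group and 1 left out, the lone sample is assumed to vary like the other groups. Genes under 1 CPM, where replicates differ most, could be called only at large changes.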
